A study of Mus musculus with 22 samples.

Results

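The p53 target genes are 33 named genes, made up of Trp53, which encodes p53, its antagonist Mdm2 and 31 genes listed as targets of p53. They were chosen with earlier results of these data known and taken by symbol from the gene names of the deposited tables. All 33 were found among the 16235 genes listed. Of these members, 32 were listed for all libraries, and the remaining gene, Pmaip1, was not listed for the postnatal animals. The transcripts were measured by RNA sequencing of whole pancreas from 22 C57Bl/6 mice in 8 groups. Every mouse carried a Cre driver of the pancreatic epithelium. Pdx1-Cre is a transgene under the Pdx1 promoter, and P48-Cre is expressed from the Ptf1a locus. Ehmt2, a histone H3 lysine 9 methyltransferase, was intact in Ehmt2+/+ mice and floxed on both alleles in Ehmt2fl/fl mice. With Pdx1-Cre, untreated tissue was taken at postnatal (PN) day 10, from 3 mice of each genotype, and in young adults (YA) of 4 to 5 weeks, from 2 Ehmt2+/+ mice and 3 that were Ehmt2fl/fl. The other mice, 4 weeks old by the study's methods, received caerulein, a cholecystokinin analog that causes acute pancreatitis, at 50 µg/kg into the peritoneum in 8 hourly doses following a 12 h fast, and tissue was taken at 18 h from the first dose. Among them, the Pdx1-Cre driver was carried by 4 Ehmt2+/+ mice and 2 Ehmt2fl/fl mice, and the P48-Cre driver by 2 and 3. No fast or injection is recorded for the untreated YA mice, so caerulein, the fast, the injections and the cohort cannot be told apart.

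p53 is a transcription factor that is kept scarce by Mdm2, an E3 ubiquitin ligase that marks it for degradation. DNA damage and other stresses release p53 from Mdm2, largely through changes of the protein, so the Trp53 transcript itself need not follow p53 activity. Its targets arrest the cell cycle, start apoptosis, repair DNA or restrain growth signalling, and Mdm2 is itself a target, which closes a feedback loop. Many of these genes also respond to other factors, and Cdkn1a is known to be induced in the pancreas during acute pancreatitis.

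p53 binds as a tetramer to pairs of half-sites of 10 bases. The RefSeq promoters (GRCm38.p6, 250 bases before to 50 bases after a transcript start) were searched on both strands for the p53 half-site, the only motif searched. A promoter was given for 25 of the 33 members, with 37 promoters in all. A half-site lay in 12 of the 37 member promoters (32.4%) and in 8.36% of all 32851 promoters of the same length. By gene, 11 of the 25 members (44.0%) held one, against 9.55% of 27025 genes. The members were Trp53, Mdm2, Cdkn1a, Ccng1, Gtse1, Bax, Aen, Ei24, Polk, Ddit4l and Sesn1. A match of letters is a description and not a bound site. The promoters of Cdkn1a, Ddit4l and Ccng1 are shown because these genes passed the test in a comparison that involves genotype and hold a half-site, which is in capitals.

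Cdkn1a, chr17:29090729-29091028, plus strand: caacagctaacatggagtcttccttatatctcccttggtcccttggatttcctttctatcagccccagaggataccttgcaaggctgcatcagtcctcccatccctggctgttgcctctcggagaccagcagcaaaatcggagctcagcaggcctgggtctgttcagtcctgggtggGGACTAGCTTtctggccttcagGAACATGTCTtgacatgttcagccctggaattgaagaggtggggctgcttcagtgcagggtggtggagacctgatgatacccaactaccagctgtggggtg
Ddit4l, chr3:137623422-137623721, plus strand: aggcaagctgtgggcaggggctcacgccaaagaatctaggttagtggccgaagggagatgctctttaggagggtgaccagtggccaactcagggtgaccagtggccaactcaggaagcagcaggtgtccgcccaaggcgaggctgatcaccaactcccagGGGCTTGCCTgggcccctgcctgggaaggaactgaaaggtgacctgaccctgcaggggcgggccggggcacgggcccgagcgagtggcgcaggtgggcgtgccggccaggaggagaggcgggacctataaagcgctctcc
Ccng1, chr11:40755237-40755536, minus strand: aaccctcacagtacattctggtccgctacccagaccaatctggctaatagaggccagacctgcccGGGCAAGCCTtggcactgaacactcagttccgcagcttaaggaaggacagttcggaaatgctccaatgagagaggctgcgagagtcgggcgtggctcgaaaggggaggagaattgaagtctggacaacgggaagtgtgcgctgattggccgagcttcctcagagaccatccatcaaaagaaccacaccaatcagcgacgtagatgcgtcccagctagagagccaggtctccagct

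The 2 half-sites of Cdkn1a lie at -73 to -64 and at -51 to -42 from the transcript start, with 12 bases between them. Only 0.359% of all promoters held 2 or more half-sites. The half-site of Ddit4l lies at -90 to -81 and that of Ccng1 at -185 to -176.

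Ehmt2 was read in every animal as the check of the deleted gene. Its level is given in CPM, counts relative to library size after scaling with the trimmed mean of M values (TMM) over the genes listed for all libraries. At PN day 10 it was 52.7, 36.8 and 37.9 CPM in Ehmt2+/+ and 45.0, 32.5 and 48.1 CPM in Ehmt2fl/fl mice. In YA mice it was 73.0 and 51.6 CPM against 71.9, 67.7 and 65.7 CPM. After caerulein it was 60.8, 64.4, 68.8 and 66.9 against 58.0 and 57.1 CPM with Pdx1-Cre, and 52.3 and 70.0 against 56.6, 52.4 and 35.7 CPM with P48-Cre. The genotype difference of Ehmt2 did not pass in any comparison (log2 -0.07 ± 0.22, SE, at PN day 10 and 0.14 ± 0.25 in YA). Counts over the whole gene do not show the loss of single exons, and whole pancreas holds cells without Cre, so the genotypes stand as labelled and are not checked by these counts.

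The libraries held 14229980 to 40321967 counts. Marker genes of acinar cells, which secrete the digestive enzymes, summed over 31 genes, took 73.4% to 78.3% of the counts of commonly listed genes in YA mice, and 48.4% to 56.9% at PN day 10. After caerulein and with Pdx1-Cre they took 49.3% to 61.2% in Ehmt2+/+ and 36.2% to 38.3% in Ehmt2fl/fl, and with P48-Cre 54.0% to 57.3% and 38.7% to 47.5%. Fewer cells of a type and less RNA per cell cannot be told apart in whole tissue. By Y-linked genes and Xist, the caerulein-treated Pdx1-Cre animals read as female in all 4 Ehmt2+/+ and as male in both Ehmt2fl/fl, so sex and genotype cannot be told apart there. The YA and P48-Cre groups held both sexes, and sex was not read at PN day 10. Sex thus also differs in part between treated and untreated Pdx1-Cre mice. The caerulein comparisons and their interaction with genotype were not fitted with sex. The balance of long to short transcripts, a log2 ratio that moves with RNA quality among other things, was lowest in P48-Cre Ehmt2fl/fl replicate 3 (-0.82), against -0.57 to 0.51 in the other libraries.

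**Figure D1:**
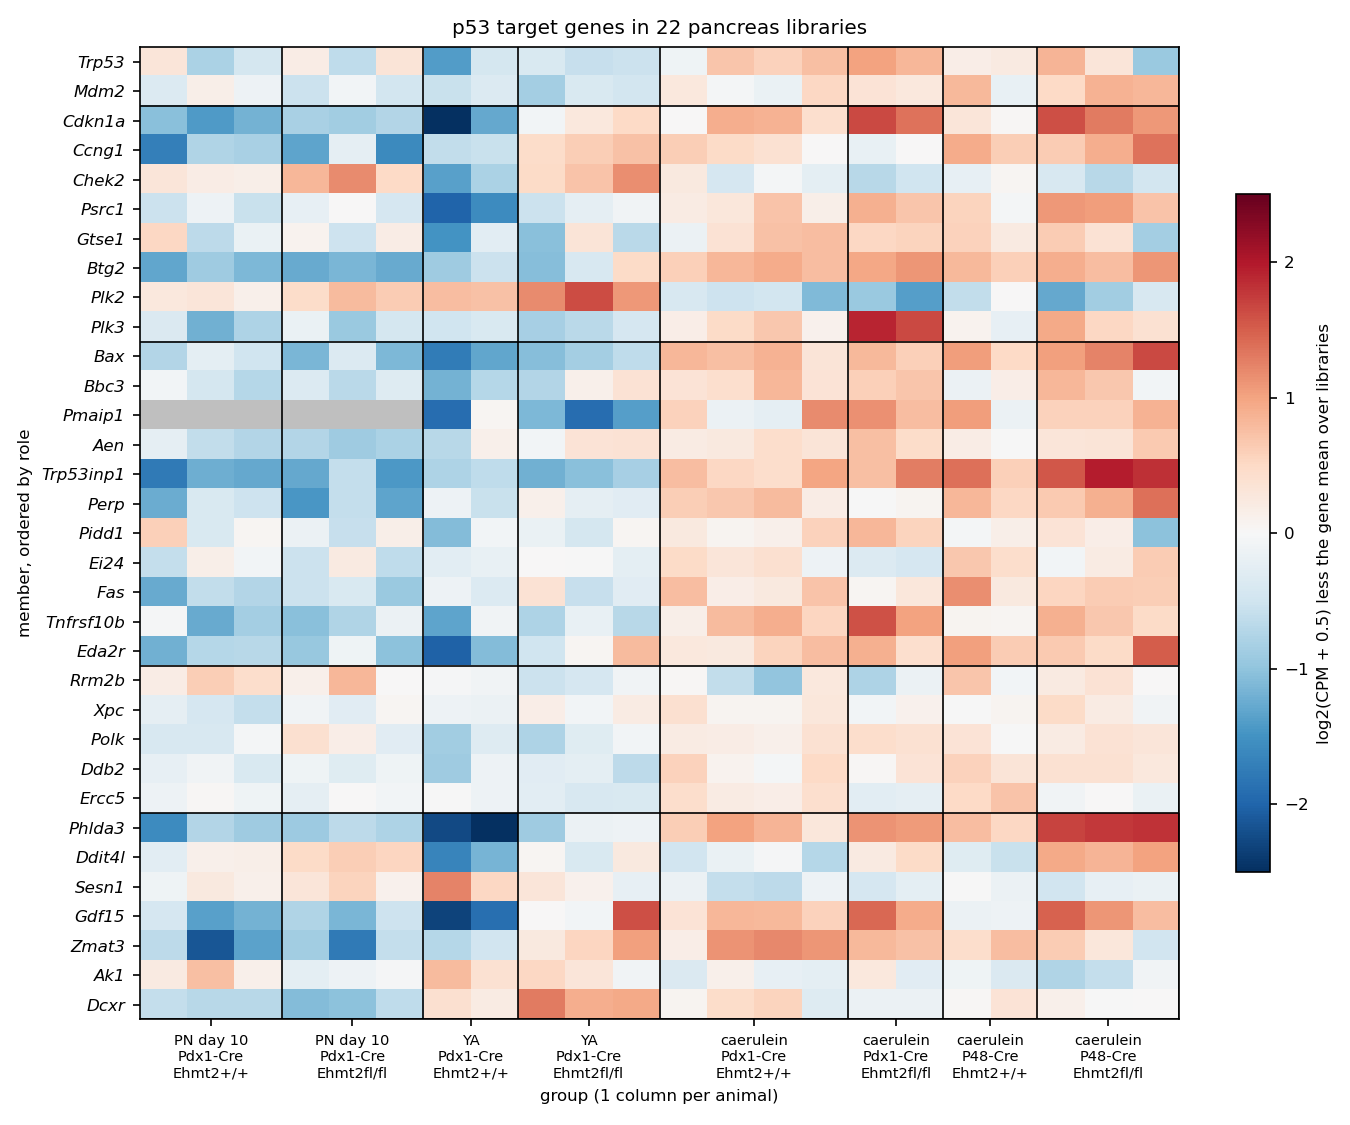
Levels of the 33 members in each of the 22 libraries, as log2(CPM + 0.5) less the gene's mean over libraries; each column is 1 animal, columns are grouped by condition, rows by role, and grey marks libraries for which Pmaip1 was not listed. Phlda3, Chek2, Psrc1, Ddit4l and Gdf15 are lowest in the 2 untreated YA Ehmt2+/+ mice, and Bax is higher in every caerulein-treated animal (from 32.8 CPM) than in any untreated one (up to 21.8 CPM).

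Per length of transcript, the untreated YA Ehmt2+/+ pancreas held the members at very unequal levels. Perp, a tetraspan protein of desmosomes, led with 26.1 RPKM (computed here as CPM divided by gene length in kilobases), followed by Ccng1 with 19.7 RPKM. The p53 gene itself stood at 2.04 RPKM and Mdm2 at 1.55 RPKM. After caerulein, Cdkn1a reached 46.3 RPKM in Pdx1-Cre Ehmt2fl/fl mice and was the highest of the members there. Pidd1 was low in every group, with group means of 0.164 to 0.514 RPKM.

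The first question was whether loss of Ehmt2 altered the p53 target genes in the maturing pancreas at PN day 10. The threshold, here and in all comparisons, was an adjusted p (Benjamini-Hochberg) under 0.1 in edgeR's quasi-likelihood test together with a log2 difference no smaller than 1 in size. None of the 32 members tested passed in either direction, against a background of 0.575% of all genes tested higher and 0.105% lower. At an unadjusted p under 0.05, 2 members were higher and 1 was lower. The share of all genes at that cutoff was not computed for any comparison, so counts at it only describe the members. DESeq2 called 0 members and 1.71% of all genes. The median log2 difference of the members was 0.11, and that of all genes -6.6e-05.

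Cdkn1a encodes the cyclin-dependent kinase inhibitor p21 and is the best known target of p53. At PN day 10 it measured 27.5, 21.4 and 25.05 CPM in Ehmt2+/+ and 32.5, 31.2 and 34.6 CPM in Ehmt2fl/fl mice. The groups did not overlap, but the log2 difference of 0.36 ± 0.30 (SE) did not pass (edgeR adjusted p = 0.676). Ddit4l, an inhibitor of the growth kinase complex mTORC1, measured 3.33, 4.47 and 4.57 against 5.93, 6.49 and 6.12 CPM. Its log2 difference was 0.54 ± 0.23 and did not pass (edgeR adjusted p = 0.47). Trp53 overlapped, with 19.0, 8.59 and 11.1 against 17.4, 9.62 and 19.2 CPM. Mdm2 overlapped as well, with 8.49, 12.2 and 9.90 against 7.34, 10.4 and 7.75 CPM. In all, 4 members lay above and 1 below the Ehmt2+/+ mice without overlap (9.68% and 4.83% of all genes).

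In untreated YA mice the same comparison gave 3 members that rose in Ehmt2fl/fl and none that fell, of 32 tested, against 0.305% of all genes higher and 0.0229% lower. The 3 were Cdkn1a, Chek2 and Phlda3. The median of the members was a log2 difference of 0.48, against -0.0037 over all genes, and 25 of 32 members (78.1%) had a positive value, against 49.5% of genes. The study itself lists Cdkn1a, Chek2, Ccng1, Phlda3, Ddit4l, Eda2r and Zmat3 among its genes changed in YA mice. The members were chosen with such results known, so these shares are not independent of how they were picked.

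Cdkn1a measured 7.59 and 23.3 CPM in the 2 Ehmt2+/+ mice and 55.1, 69.2 and 81.4 CPM in the 3 Ehmt2fl/fl mice, and the groups were apart. The log2 difference was 2.17 ± 0.38 (SE; edgeR adjusted p = 0.0484). Chek2 encodes a checkpoint kinase that acts upstream of p53 by phosphorylating it. It measured 0.969 and 1.68 CPM, from 6 and 13 counts, against 4.76, 5.67 and 7.85 CPM in Ehmt2fl/fl mice. Its log2 difference was 2.20 ± 0.38 (edgeR adjusted p = 0.0465). Phlda3 encodes a small pleckstrin homology protein that restrains Akt signalling. It measured 3.71 and 2.85 CPM against 10.4, 17.7 and 17.9 CPM, again without overlap. Its log2 difference was 2.25 ± 0.36 (edgeR adjusted p = 0.0344).

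These calls rest on few animals. Without YA Ehmt2fl/fl replicate 2 or replicate 3, 0 members passed, without YA Ehmt2+/+ replicate 1 Chek2 was lost, and without replicate 2 Cdkn1a alone was called. Where one of the 3 calls was lost, its log2 difference lay between 1.91 and 2.65 and its adjusted p between 0.102 and 0.439. DESeq2 called 7 members, adding Psrc1, Eda2r, Ddit4l and Gdf15, and with sex as a covariate 6 were called, adding Ccng1, Gdf15 and Zmat3. Both alternatives also called more of all genes than the main test, 1.29% in either direction by DESeq2. With library totals as the only scaling, 1 member and 0.275% of all genes were called.

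Among the other cell cycle members, Psrc1, a microtubule-binding protein of the mitotic spindle, measured 0.646 and 1.04 against 2.64, 3.43 and 3.82 CPM, with a log2 difference of 1.97 ± 0.39 (edgeR adjusted p = 0.101). Ccng1, which encodes cyclin G1, a partner of protein phosphatase 2A that acts on Mdm2, measured 67.8 and 70.8 against 144, 161 and 174 CPM. Its log2 difference of 1.22 ± 0.41 did not pass (edgeR adjusted p = 0.399). Both genes were apart between the groups, like 13 members in all with higher values in Ehmt2fl/fl (14.1% of all genes) and 3 with lower values (14.2%). Trp53 measured 5.49 and 11.0 CPM against 11.6, 10.02 and 10.3 CPM, and the groups overlapped. Mdm2 overlapped too, with 7.26 and 8.54 against 5.81, 8.31 and 7.75 CPM (log2 -0.09 ± 0.27).

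Gdf15 encodes a secreted stress hormone of the TGF-β family. It had 4 counts over both Ehmt2+/+ libraries and 123 over the 3 Ehmt2fl/fl libraries, or 0.161 and 0.388 against 2.82, 2.64 and 9.49 CPM. The ratio of CPM from the summed counts was 19.1 (exact 95% interval 7.27 to 71.2, counting error only), and the gene did not pass (edgeR adjusted p = 0.13). Ddit4l measured 0.969 and 1.55 against 4.23, 3.03 and 4.91 CPM, with a log2 difference of 1.68 ± 0.35 (edgeR adjusted p = 0.115). Zmat3, an RNA-binding zinc finger protein, measured 16.8 and 20.1 against 33.1, 41.0 and 57.7 CPM, and its difference of 1.27 ± 0.46 did not pass. Sesn1, a sestrin that inhibits mTORC1, pointed the other way with 37.4 and 22.5 against 19.4, 16.9 and 13.4 CPM (log2 -0.85 ± 0.27, edgeR adjusted p = 0.357). The apoptosis genes Bbc3, which encodes the BH3-only protein Puma, and Eda2r, a receptor of the TNF receptor family, measured 1.94 and 2.85 against 2.82, 5.54 and 6.55 CPM and 0.969 and 2.33 against 3.70, 5.67 and 9.82 CPM. Neither passed. None of the 5 DNA repair members passed, and their median log2 difference was 0.08.

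**Figure D2:**
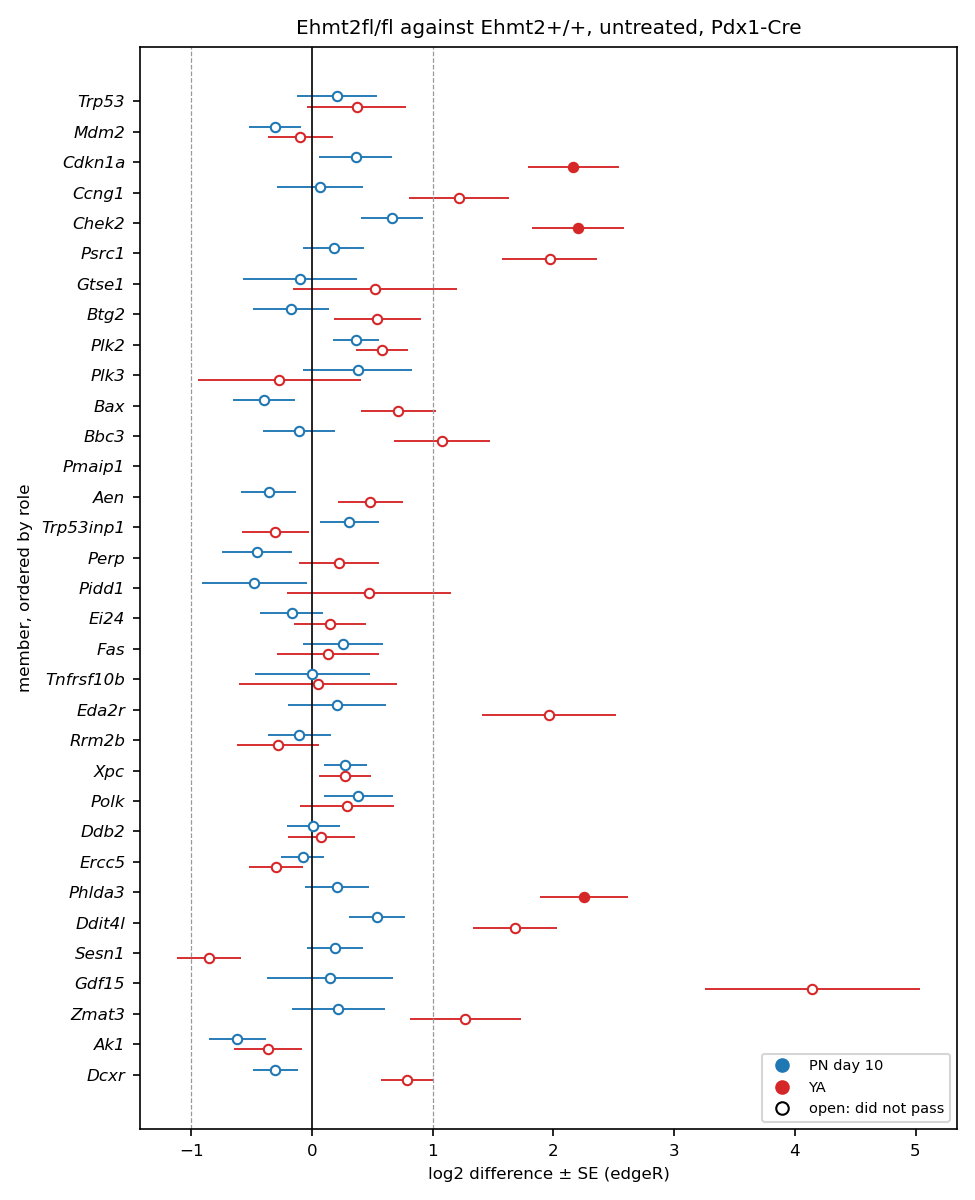
Log2 difference of Ehmt2fl/fl against Ehmt2+/+ in untreated Pdx1-Cre mice for each member, with its SE, at PN day 10 (blue) and in YA (red); filled points passed and open points did not. At PN day 10 no point is filled, and in YA Cdkn1a, Chek2 and Phlda3 are filled at 2.17, 2.20 and 2.25.

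Whether the genotype difference itself changed with age was tested as an interaction. None of the 32 members passed (0.0336% of all genes were higher and 0.0% lower). At an unadjusted p under 0.05, 11 members had a larger and 1 a smaller difference in YA, with no share of all genes computed. DESeq2 called 3 members (Cdkn1a, Phlda3 and Gdf15) and 0.437% of all genes. The interaction was 1.80 ± 0.47 for Cdkn1a (SE; edgeR adjusted p = 0.551) and 2.04 ± 0.45 for Phlda3 (adjusted p = 0.539). The effects at PN day 10 and in YA were thus not shown to differ by edgeR.

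With age in Ehmt2+/+ mice, 1 member rose and 5 fell from PN day 10 to YA, of 32 tested, against 7.25% of all genes higher and 10.2% lower. Without overlap of the groups, 8 members were higher (22.8% of all genes) and 8 lower (25.2%). The members that fell were Chek2, Psrc1, Bax, Phlda3 and Ddit4l. Bax encodes a pore-forming protein of the mitochondrial outer membrane in apoptosis and went from 15.5, 21.8 and 18.3 CPM to 7.43 and 10.2 CPM (log2 -1.06 ± 0.31, SE; edgeR adjusted p = 0.0335). Phlda3 went from 6.29, 11.6 and 10.3 CPM to 3.71 and 2.85 CPM (-1.52 ± 0.35, adjusted p = 0.0129). Ddit4l had the largest fall of the 5 after Psrc1, with -1.68 ± 0.34. The member that rose was Dcxr, a dicarbonyl and L-xylulose reductase, from 7.74, 7.22 and 7.22 CPM to 16.0 and 13.9 CPM (1.02 ± 0.21, adjusted p = 0.00745).

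The age comparison shares the YA Ehmt2+/+ mice with the YA genotype comparison, so the members that are low in these 2 mice enter both. Chek2 was 4.16, 3.79 and 3.66 CPM in PN Ehmt2+/+ mice, 6.16, 8.05 and 4.80 CPM in PN Ehmt2fl/fl mice and 4.76, 5.67 and 7.85 CPM in YA Ehmt2fl/fl mice, so that the YA Ehmt2+/+ pair of 0.969 and 1.68 CPM was the lowest of the untreated groups. Psrc1 had the same order, with 2.63, 3.67 and 2.59 CPM in PN Ehmt2+/+ mice. Without YA Ehmt2+/+ replicate 1, Chek2, Bax and Dcxr did not pass, Phlda3 did not without replicate 2, and Bax did not without PN Ehmt2+/+ replicate 2. Scaled by library totals alone, the median of all genes was -1.72 with age, and 84.6% of all genes were called in either direction. Of 32 members, 0 were higher and 27 lower, near that share. The log2 value of Dcxr turned to -0.72, so these directions are relative to the bulk of genes.

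**Figure D3:**
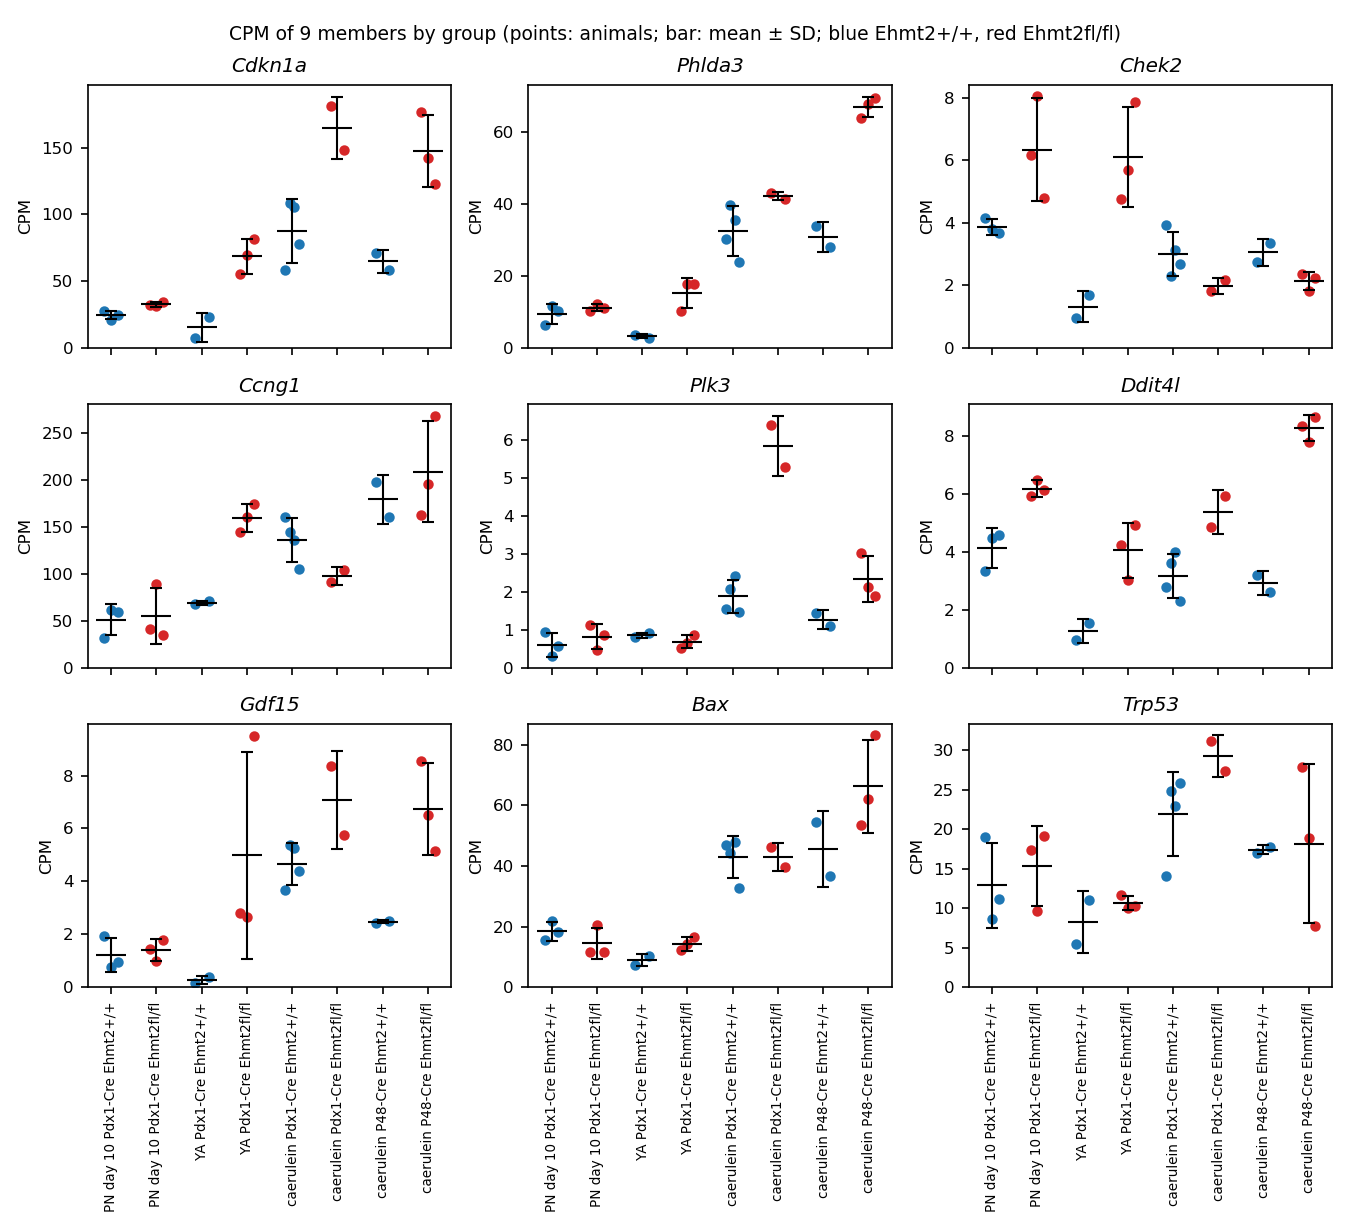
CPM of 9 members in the 8 groups; points are animals, the short bar is the mean with its SD, blue is Ehmt2+/+ and red Ehmt2fl/fl, and each panel starts at 0. The YA Ehmt2+/+ points of Cdkn1a, Phlda3, Chek2, Ddit4l and Gdf15 lie below all YA Ehmt2fl/fl points, and Plk3 is highest in caerulein-treated Pdx1-Cre Ehmt2fl/fl mice at 6.40 and 5.30 CPM.

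After caerulein more members passed than in any genotype comparison. In Pdx1-Cre Ehmt2+/+ mice, 16 of 33 members rose and 2 fell against untreated YA mice, where 10.4% of all genes were higher and 9.61% lower. The members' median log2 difference was 1.14, against 0.10 over all genes, and 27 of 33 members lay above the untreated mice without overlap (23.1% of all genes) and 3 below (23.8%). Rises came in the core (1 of 2), cell cycle (6 of 8), apoptosis (5 of 11) and growth, stress and metabolism (4 of 7) groups, while none of the 5 DNA repair genes passed. With library totals as the only scaling, the median of all genes was 1.55, and 75.4% of them were called in either direction. Of members, 30 were higher and 0 lower, and their median stood 1.02 above that of all genes.

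Trp53 measured 5.49 and 11.0 CPM in untreated mice and 14.1, 24.9, 23.0 and 25.8 CPM after caerulein, with a log2 difference of 1.41 ± 0.31 (SE; edgeR adjusted p = 0.00554). Mdm2 lay at 7.26 and 8.54 CPM and then at 13.2, 10.5, 9.63 and 15.9 CPM. The groups were apart, but its difference of 0.64 ± 0.24 was under the size threshold. Whether the responses of Trp53 and Mdm2 differed was not tested.

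Among cell cycle genes, Cdkn1a went from 7.59 and 23.3 CPM to 58.4, 109, 106 and 77.8 CPM (2.502 ± 0.43, edgeR adjusted p = 0.0014). Psrc1 went from 0.646 and 1.04 CPM to 4.76, 5.07, 6.97 and 4.55 CPM (2.65 ± 0.34). Btg2, an antiproliferative factor that recruits deadenylases to messenger RNA, went from 26.8 and 34.2 CPM to 75.5, 88.5, 95.1 and 85.9 CPM (1.51 ± 0.35). In each of these the lowest treated mouse stood above the highest untreated one. Smaller rises were those of Chek2, to 3.92, 2.30, 3.12 and 2.69 CPM (1.16 ± 0.37), and of the polo-like kinase gene Plk3, from 0.807 and 0.906 to 1.56, 2.07, 2.42 and 1.47 CPM (1.14 ± 0.36). Gtse1, a microtubule protein that moves p53 out of the nucleus in human cells, went from 0.646 and 2.20 to 2.40, 3.66, 4.87 and 5.05 CPM (1.45 ± 0.55, edgeR adjusted p = 0.0672). Chek2, Plk3 and Gtse1 lost their calls without YA Ehmt2+/+ replicate 1, Plk3 also without replicate 2 or treated Ehmt2+/+ replicate 3, and Gtse1 also without treated replicate 3 or 4. Plk2, another polo-like kinase, fell from 56.0 and 54.2 CPM to 24.3, 22.5, 23.4 and 14.8 CPM (-1.36 ± 0.23), a direction that was reversed (0.077) with library totals alone.

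Among apoptosis genes, Bax rose from 7.43 and 10.2 CPM to 46.8, 44.3, 47.9 and 32.8 CPM (2.29 ± 0.23, edgeR adjusted p = 5.86e-05). Trp53inp1, a stress protein that promotes autophagy and p53 phosphorylation, rose from 37.4 and 40.8 CPM to 109, 92.0, 87.5 and 127 CPM (1.42 ± 0.22). Both kept their calls with each library left out in turn. Eda2r went to 6.70, 6.52, 8.26 and 9.68 CPM (2.21 ± 0.46), Bbc3 to 6.49, 6.83, 9.35 and 6.52 CPM (1.60 ± 0.35) and the death receptor gene Tnfrsf10b from 0.807 and 2.59 to 3.12, 5.19, 5.64 and 4.23 CPM (1.39 ± 0.44), a call lost without YA Ehmt2+/+ replicate 1. Perp (0.93 ± 0.21), Fas, the receptor of Fas ligand (0.84 ± 0.33), Ei24, a protein of the endoplasmic reticulum (0.51 ± 0.18), and Aen, a nuclease of apoptosis (0.55 ± 0.24), stayed under the size threshold. Pmaip1, which encodes the BH3-only protein Noxa, had 11 counts in untreated and 231 in treated libraries and did not pass (ratio 2.53, exact 95% interval 1.39 to 5.14, counting error only).

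Among the growth, stress and metabolism genes, Phlda3 rose from 3.71 and 2.85 CPM to 30.3, 39.9, 35.7 and 24.0 CPM (3.33 ± 0.32, edgeR adjusted p = 4.05e-05). Gdf15 rose from 0.161 and 0.388 CPM to 3.67, 5.36, 5.25 and 4.41 CPM. Its untreated libraries held 4 counts in all, and the ratio was 16.5 (exact 95% interval 6.43 to 60.9, counting error only; edgeR adjusted p = 0.0024). Zmat3 went from 16.8 and 20.1 CPM to 31.5, 61.4, 65.4 and 60.7 CPM (1.58 ± 0.32) and Ddit4l from 0.969 and 1.55 to 2.78, 3.60, 3.99 and 2.29 CPM (1.32 ± 0.37). The call of Ddit4l was lost without YA Ehmt2+/+ replicate 1. Sesn1 fell from 37.4 and 22.5 CPM to 13.9, 10.2, 9.73 and 14.2 CPM (-1.31 ± 0.23), a call lost without the same animal and a direction that was reversed (0.18) with library totals alone. Gls2, a mitochondrial glutaminase and a further p53 target that is not a member, fell too (-1.28 ± 0.17).

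In Pdx1-Cre Ehmt2fl/fl mice, 11 of 33 members rose after caerulein and 3 fell, where 18.5% of all genes were higher and 14.7% lower. The members' median log2 difference was 0.47, against 0.12 over all genes, and 18 lay above the untreated mice without overlap (40.6% of all genes) and 6 below (31.6%). With library totals alone the median of all genes was 2.38, and 90.5% of them were called in either direction. Of 33 members, 31 were higher and 0 lower, near that share, and their median stood 0.29 above that of all genes. Of the rises, 9 were of genes that also rose in Ehmt2+/+ mice, namely Trp53, Cdkn1a, Psrc1, Btg2, Plk3, Bax, Trp53inp1, Tnfrsf10b and Phlda3, and Plk2 fell in both genotypes. The treated and untreated mice of the 2 genotypes share no animal.

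Trp53 went from 11.6, 10.02 and 10.3 CPM to 31.2 and 27.4 CPM (log2 1.47 ± 0.29, SE; edgeR adjusted p = 0.00188). Cdkn1a went from 55.1, 69.2 and 81.4 CPM to 181 and 148 CPM (1.27 ± 0.38, adjusted p = 0.0185), a call that did not hold without treated Ehmt2fl/fl replicate 1. Mdm2 went from 5.81, 8.31 and 7.75 CPM to 13.98 and 13.1 CPM and stayed under the size threshold (0.89 ± 0.24, adjusted p = 0.00977). Plk3 rose from 0.529, 0.659 and 0.873 CPM to 6.40 and 5.30 CPM and had the largest size of difference among the called cell cycle genes (3.05 ± 0.33, adjusted p = 4.4e-05). Bax went from 12.2, 14.2 and 16.6 to 46.2 and 39.6 CPM (1.58 ± 0.21) and Phlda3 from 10.4, 17.7 and 17.9 to 43.1 and 41.6 CPM (1.46 ± 0.26), and for both genes the YA Ehmt2fl/fl mice lay above the 2 YA Ehmt2+/+ mice. Trp53inp1 went from 27.7, 30.9 and 35.6 CPM to 109 and 156 CPM (2.09 ± 0.22), and Tnfrsf10b from 1.41, 2.37 and 1.53 to 9.30 and 6.08 CPM (2.12 ± 0.41). Psrc1 went from 2.64, 3.43 and 3.82 to 7.91 and 6.93 CPM, and Btg2 from 23.4, 37.9 and 69.8 to 98.0 and 108 CPM. Both lost their calls without YA Ehmt2fl/fl replicate 1.

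Pmaip1 and Pidd1 passed in Ehmt2fl/fl mice. Pmaip1 had 4 counts over the untreated and 297 over the treated libraries, or 0.352, 0 and 0.218 against 3.62 and 2.68 CPM, a ratio of 17.5 (exact 95% interval 6.78 to 64.8, counting error only; edgeR adjusted p = 0.00612). Pidd1, a scaffold that activates caspase-2, went from 1.06, 0.791 and 1.31 to 2.58 and 2.07 CPM (1.14 ± 0.40, adjusted p = 0.0375), and was lost without treated Ehmt2fl/fl replicate 1 or YA Ehmt2fl/fl replicate 2. The falls were those of Plk2, from 74.7, 102 and 68.9 to 16.8 and 12.2 CPM (-2.48 ± 0.27), of Chek2, from 4.76, 5.67 and 7.85 to 1.81 and 2.17 CPM (-1.61 ± 0.32), and of Dcxr, from 30.1, 23.1 and 23.7 to 10.7 and 10.8 CPM (-1.24 ± 0.26). With library totals alone, Chek2 (0.59) and Dcxr (1.05) had the opposite sign. Gtse1, Eda2r, Bbc3, Zmat3, Gdf15, Ddit4l and Sesn1, which passed in Ehmt2+/+ mice, did not pass here, with log2 differences of 1.02, 0.47, 0.69, 0.13, 0.47, 0.41 and -0.42. None of these 7 passed in the interaction of genotype and caerulein.

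**Figure D4:**
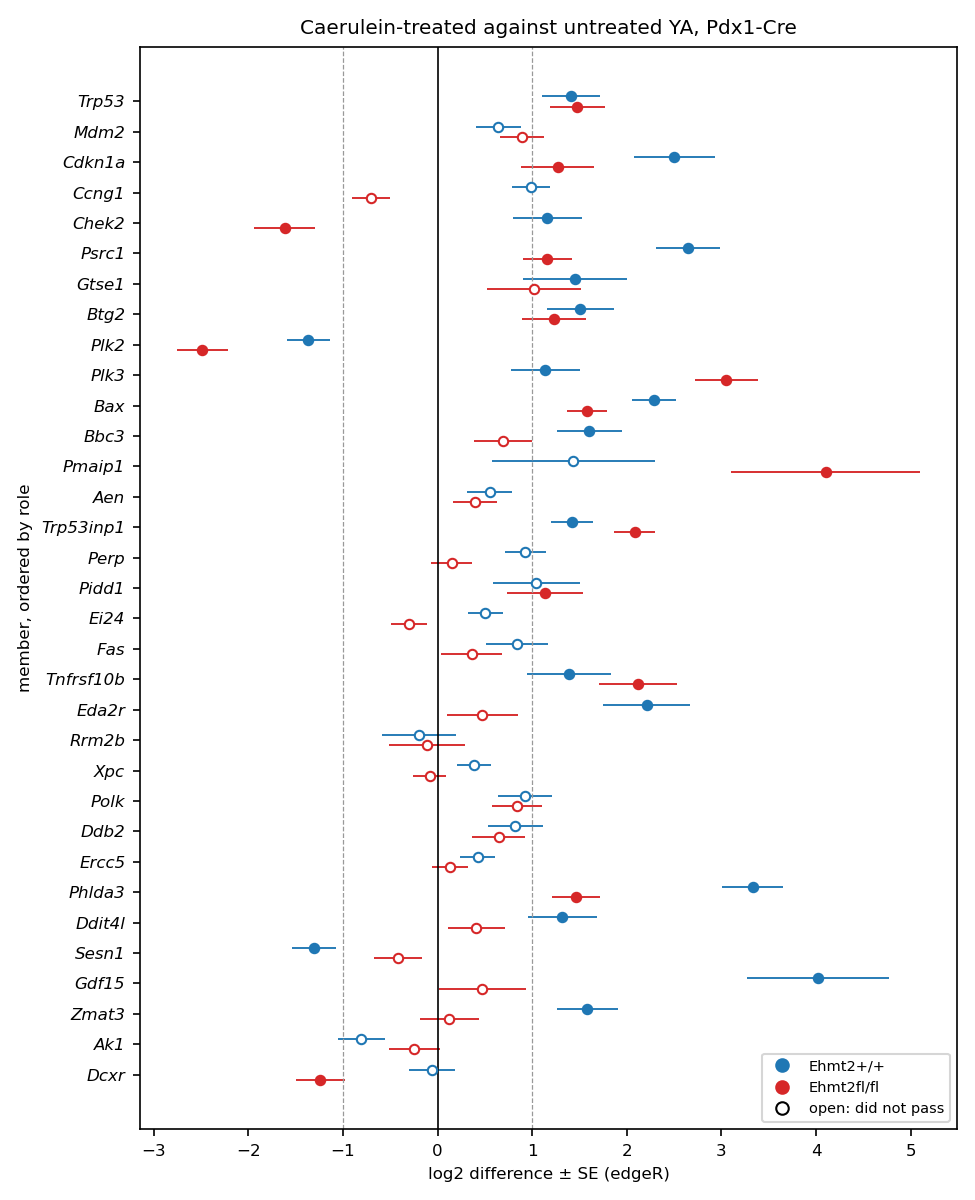
Log2 difference of caerulein-treated against untreated YA Pdx1-Cre mice for each member, with its SE, in Ehmt2+/+ (blue) and Ehmt2fl/fl (red); filled points passed and open points did not. Phlda3 (3.33 and 1.46) and Bax (2.29 and 1.58) are filled in both, and Chek2 lies on opposite sides of 0 at 1.16 and -1.61.

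Whether the response to caerulein differed between the genotypes was tested as an interaction, which is also the difference between the genotype effect after caerulein and the one in untreated mice. It was lower in Ehmt2fl/fl for 3 of 33 members and higher for none, where 0.876% of all genes were lower and 0.379% higher. Ccng1 had the interaction with the lowest adjusted p (log2 -1.69 ± 0.28, SE; edgeR adjusted p = 0.0319), since it was 67.8 and 70.8 CPM untreated and 160, 145, 136 and 105 CPM treated in Ehmt2+/+, but 144, 161 and 174 CPM untreated and 91.1 and 104 CPM treated in Ehmt2fl/fl mice. Chek2 followed with -2.77 ± 0.48 (edgeR adjusted p = 0.0386) and Phlda3 with -1.87 ± 0.41 (edgeR adjusted p = 0.0811). Sex enters the interaction too and was not fitted, since the treated Ehmt2+/+ mice read as female and the treated Ehmt2fl/fl mice as male.

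In all 3 genes the untreated Ehmt2fl/fl mice were above the untreated Ehmt2+/+ mice, while the treated groups were closer together. Treated Ehmt2fl/fl mice stayed above for Phlda3, but lay below for Chek2 (1.81 and 2.17 against 2.30 to 3.92 CPM) and Ccng1 (91.1 and 104 against 105 to 160 CPM). With P48-Cre Chek2 was lower as well (2.37, 1.83 and 2.24 against 2.76 and 3.36 CPM), and Chek2 passed with neither driver. The members' median interaction was -0.47, against 0.0044 over all genes. At an unadjusted p under 0.05, 13 members were lower and 3 higher, and the share of all genes at that cutoff was not computed. DESeq2 called 8 members, all lower, and 4.16% of all genes in either direction. Scaled by library totals alone, the median of all genes was 0.81, 15.6% of them were called, and 4 members were higher and 1 was lower. None was called without YA Ehmt2+/+ replicate 2, without treated Ehmt2fl/fl replicate 1 or 2, or with the balance of long to short transcripts in the model, and 8 (7 lower and 1 higher) were called without treated Ehmt2+/+ replicate 4. Phlda3 was lost without any of 7 of the 11 libraries.

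After caerulein, the genotypes were compared within each driver, and the 2 comparisons share no animal. With Pdx1-Cre, 1 of 33 members rose in Ehmt2fl/fl and none fell, where 4.22% of all genes were higher and 2.87% lower. Without overlap of the groups, 9 members were higher (20.3% of all genes) and 5 lower (15.9%). The gene that rose was Plk3, with 1.56, 2.07, 2.42 and 1.47 CPM in Ehmt2+/+ and 6.40 and 5.30 CPM in Ehmt2fl/fl mice (log2 1.60 ± 0.29, SE; edgeR adjusted p = 0.0133), and it did not pass without Ehmt2fl/fl replicate 1 (adjusted p = 0.177). Cdkn1a measured 58.4, 109, 106 and 77.8 against 181 and 148 CPM and came under the size threshold (0.88 ± 0.28, adjusted p = 0.0973). Ercc5, an endonuclease of nucleotide excision repair, measured 7.46, 6.32, 6.09 and 7.38 against 4.42 and 4.55 CPM, also under the size threshold (-0.62 ± 0.16, adjusted p = 0.0481).

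With P48-Cre, 4 of 33 members rose in Ehmt2fl/fl and none fell, where 4.01% of all genes were higher and 1.95% lower. Without overlap, 9 members were higher (20.8% of all genes) and 3 lower (14.9%). Cdkn1a measured 70.8 and 58.7 CPM against 176, 142 and 123 CPM (1.19 ± 0.31, edgeR adjusted p = 0.0659). Ddit4l measured 3.21 and 2.62 against 8.33, 7.77 and 8.66 CPM (1.5 ± 0.28, adjusted p = 0.0214). Phlda3 measured 33.8 and 28.0 against 63.8, 67.7 and 69.5 CPM (1.12 ± 0.23, adjusted p = 0.0282). These 3 genes and Gdf15, with 2.44 and 2.52 against 8.56, 6.52 and 5.13 CPM (1.45 ± 0.31, adjusted p = 0.0327), were apart between the groups in every animal. All 4 calls were lost without P48-Cre Ehmt2+/+ replicate 2, with log2 values of 1.07, 1.38, 1.002 and 1.49 for Cdkn1a, Ddit4l, Phlda3 and Gdf15, and Cdkn1a and Gdf15 were lost without replicate 1. Cdkn1a was also lost without Ehmt2fl/fl replicate 1 or 2. All 4 passed without Ehmt2fl/fl replicate 3, the library with the lowest long-to-short balance.

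Trp53 varied widely among P48-Cre Ehmt2fl/fl mice, with 27.8, 18.9 and 7.77 CPM against 17.1 and 17.8 CPM, and the lowest value was that of replicate 3. Mdm2 overlapped, with 19.4 and 9.54 against 15.6, 20.3 and 19.9 CPM. Ercc5 measured 7.83 and 9.10 against 5.04, 5.40 and 4.77 CPM (-0.74 ± 0.16, edgeR adjusted p = 0.0357) and was again under the size threshold.

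**Figure D5:**
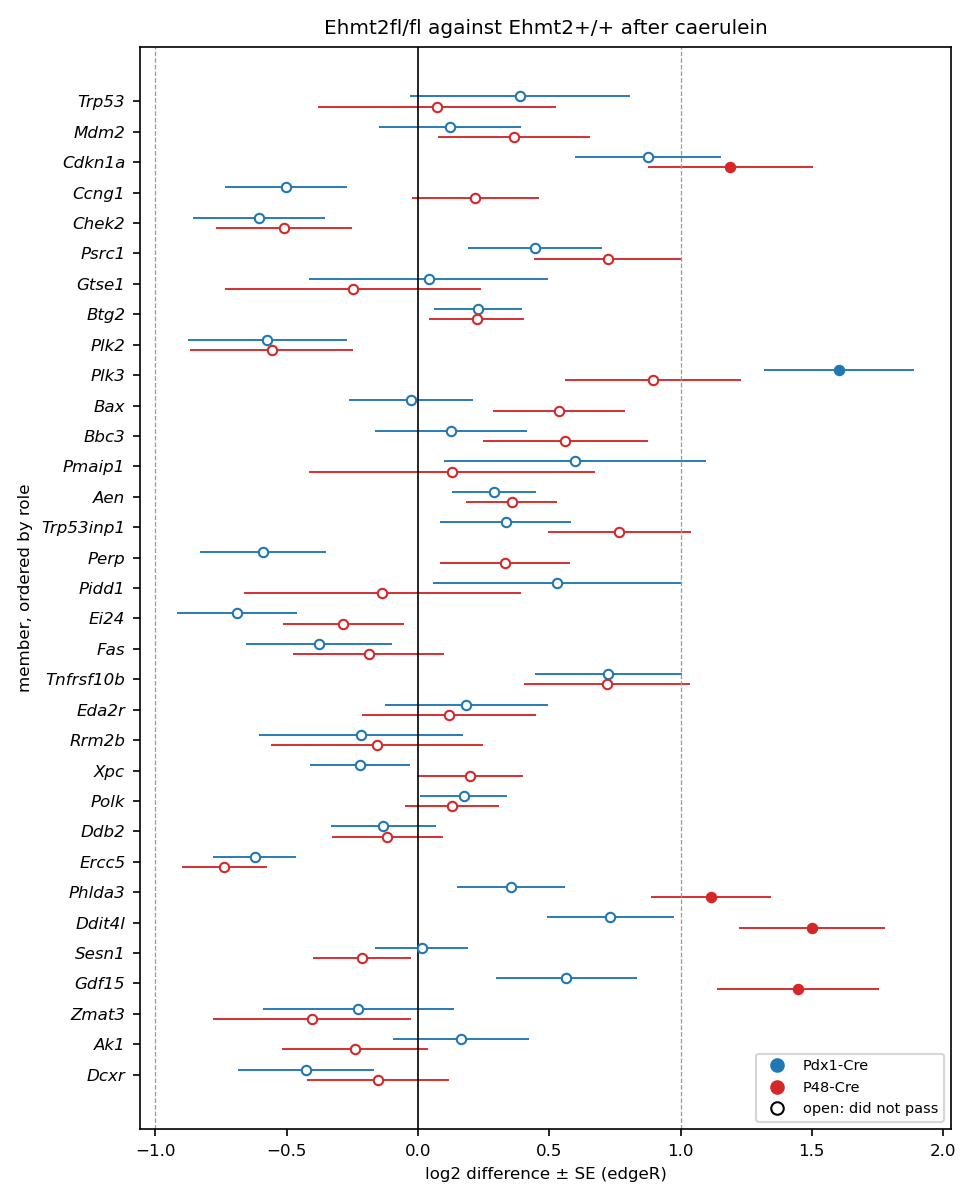
Log2 difference of Ehmt2fl/fl against Ehmt2+/+ after caerulein for each member, with its SE, with Pdx1-Cre (blue) and P48-Cre (red); filled points passed and open points did not. Plk3 is filled with Pdx1-Cre at 1.60, and Cdkn1a, Phlda3, Ddit4l and Gdf15 with P48-Cre at 1.19, 1.12, 1.5 and 1.45.

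Over both drivers together, with driver as a covariate, Cdkn1a (1.02 ± 0.21, SE; edgeR adjusted p = 0.00703), Ddit4l (1.09 ± 0.22, adjusted p = 0.00609) and Plk3 (1.29 ± 0.23, adjusted p = 0.00372) rose, which is 3 of 33 members, where 5.32% of all genes were higher and 2.76% lower. None fell, and Ercc5 was -0.68 ± 0.11 (adjusted p = 0.00239), under the size threshold. Without P48-Cre Ehmt2+/+ replicate 2, Cdkn1a and Ddit4l both came to 0.95 and Plk3 alone was called. Cdkn1a was also under the size threshold without Pdx1-Cre Ehmt2+/+ replicate 1 (0.95) or P48-Cre Ehmt2fl/fl replicate 1 (0.94). In Pdx1-Cre mice Ddit4l measured 2.78, 3.60, 3.99 and 2.29 against 4.84 and 5.92 CPM. In P48-Cre mice Plk3 measured 1.45 and 1.09 against 3.03, 2.12 and 1.89 CPM. A difference of the genotype effect between drivers was not shown for any member by edgeR, where 0.0% of all genes were called in either direction, and 2 members had an unadjusted p under 0.05 and DESeq2 called 0. Across members, the sign was the same with both drivers for 25 of 33 (75.8%), against 64.8% of 14440 genes.

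Scaled by library totals alone, the median of all genes was 0.84 with Pdx1-Cre and 0.82 with P48-Cre. That scaling called 34.4% and 32.4% of all genes in either direction. Of 33 members, it called 17 and 15 higher and 0 lower. Relative to those medians, the members' medians were 0.17 and 0.10. Macrophage and monocyte markers, all 15 of which were measured, after caerulein summed to between 605 and 1062 CPM in Pdx1-Cre Ehmt2+/+ and between 1714 and 2050 CPM in Ehmt2fl/fl, to 511 to 838 and 1428 to 2663 CPM with P48-Cre, and to 111 to 221 CPM in untreated YA Ehmt2+/+ mice, with none at 0 throughout a group. Of these markers 9 of 15 rose in Ehmt2fl/fl with Pdx1-Cre and 6 of 15 with P48-Cre. Other marker lists moved with genotype in the same mice. Of acinar genes 20 of 31 fell with Pdx1-Cre and 11 of 31 with P48-Cre, and 2 rose with each. Of neutrophil genes 5 of 7 and 6 of 7 rose, and 3 of them summed to 5.55 to 16.1 against 46.1 and 78.7 CPM with Pdx1-Cre and 4.60 and 4.75 against 31.8 to 76.1 CPM with P48-Cre. Of duct genes 5 of 13 rose and 1 fell with each driver, and their sums were 3785 to 7097 against 4486 and 4835 CPM with Pdx1-Cre and 5100 and 5157 against 6287 to 7189 CPM with P48-Cre. Genes of the integrated stress response rose in 2 of 16 and 7 of 16, and immediate early genes in 5 of 15 and 5 of 14. With TMM scaling, as used for these lists, 4.22% of all genes were higher and 2.87% lower with Pdx1-Cre, and 4.01% and 1.95% with P48-Cre. The part of any of these lists in the members' differences was not tested. In untreated YA mice, where Cdkn1a, Chek2 and Phlda3 passed, the same markers summed to 123 to 153 CPM in Ehmt2fl/fl. Of the marker lists, 1 of 6 erythroid and 2 of 31 acinar genes rose there, where 0.305% of all genes were higher. Summed levels of several lists were nonetheless apart between the YA groups. Erythroid markers (5 genes) were at 72.7 and 140 CPM against 198 to 805 CPM, fibroblast and stellate cell markers (12 genes) at 767 and 769 CPM against 1158 to 1465 CPM, duct markers (13 genes) at 690 and 880 CPM against 998 to 1104 CPM and endothelial markers (10 genes) at 283 and 293 CPM against 319 to 345 CPM. Integrated stress response genes (16 genes) were at 1903 and 2217 CPM against 2376 to 2502 CPM, and immediate early genes (12 genes) at 68.6 and 78.1 CPM against 83.2 to 116 CPM. B and plasma cell markers, with only 1 gene summed, went the other way, at 4.20 and 16.3 CPM against 1.31 to 2.51 CPM. The part of these lists in the members' differences was not tested.

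Other genes of the pathway were taken from lists that do not overlap the members. Of p53 regulators and DNA damage kinases, none of 23 tested passed at PN day 10 and none of 22 in YA. Mdm4, the second inhibitor of p53 related to Mdm2, was -0.80 ± 0.33 in YA (edgeR adjusted p = 0.473). After caerulein 0 of 22 passed in Ehmt2+/+ and 4 of 23 (17.4%) fell in Ehmt2fl/fl mice, a share near the 14.7% of all genes lower there. They were Rchy1, a ubiquitin ligase for p53 (-1.34 ± 0.17), and the ribosomal protein genes Rpl5, Rpl11 and Rpl23, whose products bind Mdm2 (-1.20 ± 0.34, -1.17 ± 0.33 and -1.24 ± 0.35).

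Of other p53 targets, none of 40 passed in either untreated genotype comparison. After caerulein 10 of 41 (24.4%) rose and 2 fell in Ehmt2+/+ mice, where 10.4% of all genes were higher. In Ehmt2fl/fl mice 9 of 41 (22.0%) rose and 2 fell, near the 18.5% of all genes higher. Among them were Nupr1, a stress-induced chromatin protein (1.94 ± 0.23 and 1.89 ± 0.22), and Rap2b, a small GTPase (1.67 ± 0.23 and 2.53 ± 0.21). Nupr1 is also in the list of integrated stress response genes. For Ehmt2fl/fl against Ehmt2+/+ after caerulein over both drivers, 3 of 41 (7.32%) rose and 1 (2.44%) fell. These shares are near the 5.32% and 2.76% of all genes. Gadd45a, a growth arrest and DNA damage protein, was among those that rose in that comparison (1.495 ± 0.24, edgeR adjusted p = 0.00197). Casp9, the initiator caspase of the mitochondrial pathway, fell there (-2.88 ± 0.42, adjusted p = 0.00125).

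Genes of the cell cycle, which p21 restrains, did not pass in either untreated genotype comparison (0 of 30 at PN day 10 and 0 of 29 in YA). With age in Ehmt2+/+ mice, 26 of 29 fell, where 10.2% of all genes were lower, and 27 of the list summed to 465 to 543 CPM at PN day 10 and 126 to 196 CPM in YA. After caerulein 3 of 29 rose and 3 fell in Ehmt2+/+ mice (10.4% and 9.61% of all genes), and 5 of 30 rose and 3 fell in Ehmt2fl/fl mice (18.5% and 14.7%). Of the other cyclin-dependent kinase inhibitors, 1 of 5 tested fell in Ehmt2fl/fl against Ehmt2+/+ after caerulein over both drivers, where 2.76% of all genes were lower. It was Cdkn1c, which encodes p57 (-1.42 ± 0.19, edgeR adjusted p = 0.000839), whereas Cdkn1a rose.

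Exons of some members overlap other genes, and the library kit does not mark strand. Of the exonic bases of Ddb2, a DNA damage-binding protein, 23.8% lie within Acp2 on the opposite strand, so its level is uncertain. The share was 12.2% for Bax, with a model on the same strand, 8.04% for Rrm2b, a subunit of ribonucleotide reductase, and 7.68% for Cdkn1a, both with models on the opposite strand, and 6.66% for Ei24 and 3.32% for Plk3. The remaining 27 members had no exon overlap. Stretches of 50 bases shared with transcripts of other genes made up 6.21% of Tnfrsf10b, 5.05% of Chek2, 3.95% of Trp53 and 2.04% of Aen among these 27, so their counts are less certain too. The share of all genes that passed in at least 1 comparison was not computed, so the next counts only describe the members. Of the 33 members, 22 passed in at least 1 of the 11 comparisons and 11 in none. The 11 were Mdm2, Aen, Perp, Ei24, Fas, all 5 DNA repair genes (Rrm2b, Xpc, Polk, Ddb2 and Ercc5) and Ak1, an adenylate kinase. Over the 22 libraries, the apoptosis genes among them spanned 6.65 to 21.8 CPM for Aen, 23.0 to 167 CPM for Perp, 37.9 to 94.5 CPM for Ei24 and 1.20 to 8.64 CPM for Fas. The repair genes spanned 2.35 to 9.50 CPM for Rrm2b, 5.57 to 12.3 CPM for Xpc, 1.78 to 5.15 CPM for Polk, 3.55 to 10.7 CPM for Ddb2 and 3.96 to 9.10 CPM for Ercc5, and Ak1 spanned 3.34 to 10.7 CPM.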

How the data were processed

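The pancreas of 22 mice was profiled by sequencing of poly(A) RNA. Per the labels and the study's methods, TruSeq RNA v2 libraries, which do not mark strand, were aligned to GRCm38.p6 with Gencode vM23 in MapRseq3, and the authors used edgeR 3.28.1. The deposited tables hold raw counts per gene in 6 sheets, each filtered by the authors. Counts of a library did not differ between sheets. The gene length that the authors deposited served for RPKM. The authors' 33 RPKM columns, fold changes and p-values were not used.

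Counts were tested in R 4.3.3 with edgeR 4.0.16 (TMM, filterByExpr with a minimum count of 10 and total of 15, quasi-likelihood F-test, Benjamini-Hochberg adjustment over all genes tested). The threshold was an adjusted p under 0.1 together with a log2 size no smaller than 1. There were 3 models: all untreated Pdx1-Cre mice, adult Pdx1-Cre mice with and without caerulein, and all caerulein-treated mice. Where the tables lacked a gene for some group of a model, a fit to the groups being compared replaced it. The filter removed 391 genes, Pmaip1 among them, from the YA genotype test. CPM use 1 TMM scale over 11791 genes. Coordinates of genes are those of GENCODE vM21 (GRCm38). The labels name no litters or batches. At PN day 10 some mice of the same genotype share the first part of their animal number, and no first part is shared between genotypes. What that part stands for is not given. The p-values measure the spread between animals taken as independent, which could not be checked.

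The 33 members, the gene lists and the tests were chosen with earlier results of these data known. Values in every animal are given for Trp53, Mdm2 and Cdkn1a, and for members that passed in the groups of that comparison. Members that passed nowhere are given by range. Other per-animal values of members that did not pass (such as Ercc5) were chosen after they were seen. Context genes are up to 4 genes of each list with the lowest adjusted p. The scripts were tested on simulated data. Alternatives were RLE factors, no filter, DESeq2 1.42.0, the compared groups alone, an adjusted p under 0.05, factors without acinar and mitochondrial genes, sex as a covariate (for the YA genotype in the YA groups alone) and each library left out. Scaling by library totals alone and a term for the balance of long to short transcripts were added after seeing the data. Figures were drawn with matplotlib 3.10.9.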

Additional observations from a re-analysis of the deposited data

Results flagged for a closer look

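In the caerulein-treated Pdx1-Cre Ehmt2+/+ group, the only one with 4 animals, Bbc3 was 9.35 CPM in replicate 3 against 6.49 to 6.83 CPM in the others, and Zmat3 was 31.5 CPM in replicate 1 against 60.7 to 65.4 CPM. Both gaps, 0.882 and 0.863 of the group's range, were over Dixon's 95% critical value for 4 samples. These were 2 of 33 members examined, and chance flags about 1 in 20.

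The response to caerulein differed between genotypes, by the interaction term in edgeR, for Ccng1 (log2 -1.69, adjusted p = 0.0319), Chek2 (-2.77, adjusted p = 0.0386) and Phlda3 (-1.87, adjusted p = 0.0811). All 3 calls rest on 2 untreated Ehmt2+/+ and 2 treated Ehmt2fl/fl mice. The treated mice differed in sex between the genotypes, and sex was not fitted.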

How the results depend on the processing

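No paired analysis was possible because the labels give animal numbers but no replicate number that groups share. Over 52 member calls, RLE factors, no filter and DESeq2 kept every direction and call. Of 420 values under alternatives other than leaving out a library, 393 stayed on their side, 22 were no longer called and 5 reversed. The 5 all came with library totals alone. They were Dcxr with age (-0.72) and after caerulein in Ehmt2fl/fl (1.05), Chek2 after caerulein in Ehmt2fl/fl (0.59), and Plk2 (0.077) and Sesn1 (0.18) after caerulein in Ehmt2+/+. That scaling moves the median of all genes, by -1.72 with age, 1.55 and 2.38 after caerulein in Ehmt2+/+ and Ehmt2fl/fl, 0.81 for the caerulein interaction, 0.28 at PN day 10, and 0.84, 0.82 and 0.81 for the genotype after caerulein with Pdx1-Cre, P48-Cre and both. The counts of members called were then 1 for the YA genotype, 27 with age, 30 and 31 after caerulein, 5 for the interaction (4 higher and 1 lower), and 17, 15 and 16 for the genotype after caerulein. The shares of all genes called were 0.275% for the YA genotype, 84.6% with age, 75.4% and 90.5% after caerulein and 15.6% for the interaction. For the genotype after caerulein they were 34.4%, 32.4% and 31.4%. Over all genes, calls went from 43 to 169 by DESeq2, 165 with sex and 348 with the balance for the YA genotype, from 91 to 229 and 271 by DESeq2 and the balance at PN day 10, from 4 to 52 and 196 for the age interaction, and from 169 to 560 and 29 for the caerulein interaction. For the YA genotype the count of members went from 3 to 7 by DESeq2, 6 with sex and 9 with the balance of long to short transcripts in the model. For the age interaction it went from 0 to 3 by DESeq2 and 6 with the balance, and for the caerulein interaction from 3 to 8 by DESeq2 and 0 with the balance. The balance also ended the calls of Bax (-0.80) and Dcxr (0.996) with age, of Btg2 (0.95), Cdkn1a (1.06), Pidd1 (0.79) and Dcxr (-0.84) after caerulein in Ehmt2fl/fl, and of Phlda3 (0.93) for the genotype with P48-Cre, 10 of 52 in all. Fits to the compared groups alone ended those of Gtse1 (1.45) and Plk3 (1.13) after caerulein in Ehmt2+/+ and of Gdf15 (1.44) with P48-Cre, and factors without acinar and mitochondrial genes that of Cdkn1a over both drivers (0.99). An adjusted p under 0.05 ended Gtse1 after caerulein in Ehmt2+/+, Phlda3 in the caerulein interaction and Cdkn1a with P48-Cre. Library totals alone ended Cdkn1a and Chek2 in YA, Plk2 after caerulein in Ehmt2fl/fl (-0.23), and Ccng1 and Phlda3 in the interaction. The cause was not tested.

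With 1 library left out, 260 of 315 values stayed on their side and 55 were no longer called. Counts of members called ranged over 0 to 3 for the YA genotype, 3 to 7 with age, 13 to 24 and 12 to 15 after caerulein in Ehmt2+/+ and Ehmt2fl/fl, 0 to 8 for the caerulein interaction, 0 to 2 and 0 to 4 for the genotype after caerulein with Pdx1-Cre and P48-Cre, and 1 to 4 over both. They stayed at 0 at PN day 10 and for the age and driver interactions. The lowest count was reached without YA Ehmt2fl/fl replicate 2 or 3 for the YA genotype, without Pdx1-Cre Ehmt2fl/fl replicate 1 after caerulein, and without P48-Cre Ehmt2+/+ replicate 2. A lone animal left in a group was assumed to vary like the other groups. Low counts limit Gdf15, Pmaip1, Plk3 and Psrc1 in untreated YA mice. They also limit Pidd1, Ddit4l, Chek2, Gtse1, Eda2r and Tnfrsf10b, with 11 to 25 counts per gene over the YA Ehmt2+/+ libraries.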
